A study of Homo sapiens with 12 samples.

Results

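The genes described here are 52 cell cycle genes, 23 that act in DNA replication or drive entry into S phase and 29 that act in mitosis. They were chosen by name, and each was read from the probe sets that the platform annotation gives to that 1 gene symbol. All 52 were on the array, with 85 probe sets, among 11963 genes with a probe set of their own. The probe set with the highest mean over all arrays stands for its gene below. The other 33, which belong to 21 of the genes, are summarised together and given singly for some of these genes only. 

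The study used Affymetrix arrays, which measure transcripts by hybridisation to short probes, and HMT-3522 S1, a human mammary epithelial line that is established, not neoplastic, and grows into hollow gland-like spheres, or acini, in basement membrane gel. There were 4 arrays from cultures given AGA (18-alpha-glycyrrhetinic acid, a blocker of gap junctions) at 10 µM, which had lost apical polarity, 4 from cultures given Aza (5-aza-2'-deoxycytidine, which blocks DNA methyltransferases) at 10 µM, also not polarized, and 4 from apically polarized vehicle cultures. The drugs were present for 10 days and renewed every 2 days. All 3 groups shared the rest of the protocol: cells at passage 55 to 60, plated at 35000 per cm2 with 5% Matrigel, kept for 8 days with EGF and then for 48 hours without it so that they would leave the cell cycle. The groups are 4 biological replicates of 1 line, numbered 1 to 4 in each group. Unless another fit is named, group p-values below weigh differences against the spread between replicates that is left after differences between numbers are removed.

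Before S phase, the origin recognition complex, CDC6 and CDT1 load the MCM2 to MCM7 helicase onto DNA, and CDC45 and the GINS complex turn it on. Replication factor C then loads the sliding clamp PCNA, which holds the polymerases, while E2F1 and the E-type cyclins drive the transcription and kinase activity that start the phase. In mitosis, cyclins A and B with CDK1, the Aurora and Polo kinases, the spindle checkpoint and the kinesins part the chromosomes, and CDC20 directs the anaphase-promoting complex to its targets. Promoters of mitosis genes are known for CHR elements paired with CCAAT boxes, and those of replication genes for E2F sites. Acini of this line leave the cycle as they mature, so both gene groups are commonly read as a sign of how many cells still divide.

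The promoters of 4 of the genes, picked by rank, are printed here. TOP2A and E2F1 had the lowest p under AGA among the mitosis and the replication genes. CDC20 and MCM3 had the largest F between replicate numbers in the same gene groups. Whether a promoter goes with a level was not tested. Each is the 250 bases before the gene's start in the RefSeq table of GRCh38.p14, written 5′ to 3′ on the gene's strand. Capitals mark exact matches, on either strand, to motifs of 3 kinds. The CHR was searched as TTTGAA and, in its other known form, as TTCGAA. The box named CCAAT was searched by those letters. The E2F motif was searched as TTCCCGC and, in a second known form, as TTGGCGC.
TOP2A, chr17:40417897-40418146, minus strand: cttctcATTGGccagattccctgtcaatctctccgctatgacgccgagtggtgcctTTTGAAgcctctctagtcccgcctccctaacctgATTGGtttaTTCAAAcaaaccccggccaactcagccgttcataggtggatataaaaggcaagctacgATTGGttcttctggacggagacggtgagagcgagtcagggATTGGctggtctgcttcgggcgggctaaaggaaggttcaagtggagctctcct
CDC20, chr1:43358731-43358980, plus strand: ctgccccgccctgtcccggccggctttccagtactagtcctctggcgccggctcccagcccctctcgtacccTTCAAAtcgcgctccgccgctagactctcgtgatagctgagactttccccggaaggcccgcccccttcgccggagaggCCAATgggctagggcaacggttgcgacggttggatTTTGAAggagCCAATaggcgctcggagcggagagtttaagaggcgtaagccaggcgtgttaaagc
E2F1, chr20:33686386-33686635, minus strand: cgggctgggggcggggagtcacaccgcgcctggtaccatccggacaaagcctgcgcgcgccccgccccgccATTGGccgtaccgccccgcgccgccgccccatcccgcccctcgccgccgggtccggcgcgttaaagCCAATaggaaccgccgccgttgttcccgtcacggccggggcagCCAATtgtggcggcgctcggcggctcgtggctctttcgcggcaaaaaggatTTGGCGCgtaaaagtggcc
MCM3, chr6:52284743-52284992, minus strand: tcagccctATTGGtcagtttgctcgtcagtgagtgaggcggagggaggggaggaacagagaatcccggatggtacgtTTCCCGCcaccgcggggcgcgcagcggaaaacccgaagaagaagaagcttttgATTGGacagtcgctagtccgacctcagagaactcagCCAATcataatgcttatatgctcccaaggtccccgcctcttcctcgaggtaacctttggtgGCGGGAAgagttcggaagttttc
TOP2A and CDC20 each held 2 CHR matches with 4 and 2 CCAAT boxes and no E2F match. E2F1 and MCM3 held no CHR match, 3 CCAAT boxes each, and 1 and 2 E2F matches.

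Of the 52 genes, 44 had a promoter in the table, 24 for mitosis and 20 for replication. A CHR was found in 12 of the 24 mitosis promoters (50%) and 1 of the 20 replication promoters (5%), against 14.6% of all 27305 promoters of that length. CCAAT boxes were in 21 mitosis promoters (87.5%) and 11 replication promoters (55%), against 33% of all. An E2F match was in 3 mitosis promoters (12.5%) and 10 replication promoters (50%), against 7.95% of all. Matches of different motifs overlapped in 2 promoters, those of MKI67 and PRIM1, and 7 genes had more than 1 listed start, of which the first was read. A match of letters is a description and shows no binding. The single replication promoter with a CHR was that of MCM6, which encodes a helicase subunit, and it also held 2 CCAAT boxes and 2 E2F matches.

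Levels are given as quantile-normalized log2 intensities, on which an intensity under 1 was set to 0, and arrays stand in the order of replicates 1 to 4. The brightest probe sets of 26 genes, 14 for replication and 12 for mitosis, lay above the median level of all probe sets, 4.76. Those of the other 26 lay below it, and 8 of them, among them CDC45, CDC6, NEK2 and KIF20A, were at 0 on at least 1 array. Over the 12 arrays the SD of the 26 bright genes had a median of 0.278 and ran from 0.17 to 0.513. That of the 26 dim genes had a median of 0.922 and ran from 0.372 to 1.40. The median standard error of a difference between AGA and vehicle was 0.156 in the bright genes and 0.598 in the dim ones. Array medians of the deposited intensity ran from 23.3 to 35.9. Precision was limited by having 4 arrays a group, and it was lower in the dim genes.

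**Figure D1:**
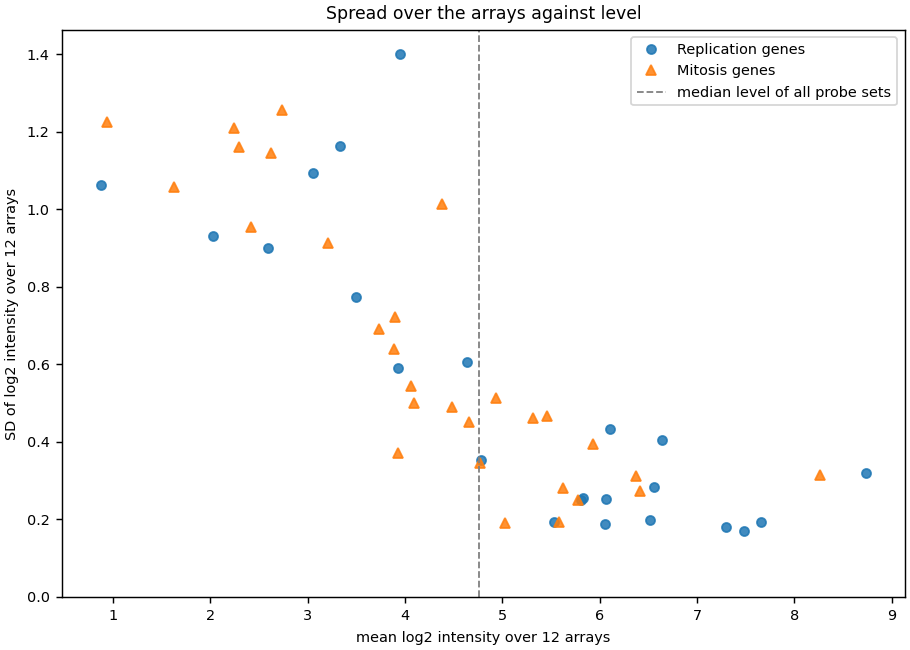
Spread against level for the 52 genes. The horizontal axis gives the mean log2 intensity over 12 arrays, the vertical axis the SD over the same arrays, circles are replication genes, triangles mitosis genes, and the dashed line marks the median level of all probe sets, 4.76. SDs right of the line end at 0.513, and those left of it reach 1.40.

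The comparison of AGA with vehicle asked whether treatment with this gap junction blocker, with loss of apical polarity, went with a different level of these genes. None of the 52 genes passed the test in either direction (limma with the replicate number as a block, two-sided, Benjamini-Hochberg adjustment over 22215 probe sets at 0.05). Of all probe sets 2 passed, 0.009%, and of all genes 0%. The median difference, AGA minus vehicle, was -0.10 over the replication genes, -0.14 over the mitosis genes and 0.01 over all genes. Differences were below 0 in 15 of 23 replication genes and 18 of 29 mitosis genes, against 48.5% of all genes. With a floor of 16, which sets dim probe sets level, the medians were 0 and -0.0503. Without the replicate block none passed either, and the lowest adjusted p of the members was 1. In RNA from whole cultures, fewer cells of a kind and less RNA per cell cannot be told apart.

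Among the replication genes, the 3 lowest p-values on the lower side were those of E2F1, CCNE2 and CDC45. E2F1, a transcription factor that opens S phase, had 1.48, 3.30, 2.74 and 3.89 on the AGA arrays, 3.23, 4.02, 3.35 and 3.83 on the Aza arrays and 4.27, 3.95, 3.85 and 4.06 on the vehicle arrays. The vehicle arrays lay close together, the AGA arrays spread downward, and AGA 4 lay inside the vehicle range. The difference was -1.18 with a standard error of 0.39 and a 95% interval from -2.09 to -0.27 (limma adjusted p = 0.463). The other E2F1 probe set gave 0.29, with the opposite sign. CCNE2, a cyclin that activates CDK2 at the start of S phase, had 4.05, 3.29, 3.94 and 3.31 under AGA, 4.10, 3.40, 4.69 and 2.94 under Aza and 4.74, 3.84, 4.47 and 4.36 in vehicle. AGA was below vehicle in all 4 pairs, although the groups overlapped, and the difference was -0.71 with a standard error of 0.24 (limma adjusted p = 0.467). Its second probe set gave -0.0040. CDC45, which helps to start the helicase, was at 0 on 3 of 4 AGA arrays, with 0, 0, 0.77 and 0 there, 0.62, 0, 0.27 and 2.19 under Aza and 2.20, 2.95, 1.47 and 0 in vehicle. Its signal lay near the floor in all groups, and the interval of its difference, -1.46, ran from -3.20 to 0.28.

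On the higher side stood FEN1, RFC4 and MCM6. FEN1, the nuclease that trims Okazaki fragments, had 6.24, 6.17, 6.58 and 6.28 under AGA, 5.95, 5.81, 6.09 and 5.84 under Aza and 5.86, 6.20, 6.09 and 5.68 in vehicle. AGA was the higher of the pair for 3 of 4 numbers, and the difference was 0.36 with a standard error of 0.13 (limma adjusted p = 0.479). Its second probe set gave -0.31, the opposite sign. RFC4, a clamp loader subunit, had 7.79, 7.65, 7.66 and 7.41 under AGA, 7.49, 7.42, 7.35 and 7.34 under Aza and 7.62, 7.18, 7.44 and 7.42 in vehicle, a difference of 0.21 with a standard error of 0.11. MCM6 had 7.52, 7.39, 7.50 and 6.94 under AGA, 7.34, 7.30, 7.53 and 7.34 under Aza and 7.14, 7.09, 7.24 and 7.21 in vehicle, a difference of 0.17 with a standard error of 0.13. For RFC4 and MCM6 the AGA and vehicle arrays overlapped, and without normalization between arrays, where the median of all genes was itself at -0.24, their differences were -0.053 and -0.095.

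Among the other helicase genes, MCM2, MCM3 and MCM4 gave 0.13, -0.10 and -0.11, MCM7 -0.32, and the dim MCM5 0.39 with an interval from -0.62 to 1.40. Their loaders CDC6 and CDT1 were dim too, with -0.69 and -0.25 and intervals over 2 log2 units wide. The clamp PCNA, also used in DNA repair, gave 0.05 with an interval from -0.26 to 0.37, and it was higher under AGA in all 4 pairs. The clamp loader subunits RFC2, RFC3 and RFC5 gave -0.02, -0.12 and 0.14. GINS1, of the helicase complex, gave -0.16, and PRIM1, the primase that makes the RNA primers, -0.07. CCNE1, the other E-type cyclin, gave -0.22. The remaining dim genes GINS2, POLE2 and TK1 gave 0.19, -0.04 and -0.65, each with an interval on both sides of 0.

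Among the mitosis genes, TOP2A, BUB1B and KIF11 had the lowest p-values on the lower side. TOP2A, the topoisomerase that untangles sister chromosomes, whose promoter is printed above, had 4.51, 3.47, 2.70 and 4.14 under AGA, 6.10, 3.66, 3.33 and 4.78 under Aza and 5.72, 5.37, 4.19 and 4.60 in vehicle. Each AGA array was below the vehicle array of its number, while the ranges of the groups overlapped. The difference was -1.26 with a standard error of 0.35 and an interval from -2.08 to -0.45. Its unadjusted p was 0.00765 and its limma adjusted p 0.437, or 0.139 with an intensity trend in the variance, under which none of the 52 genes and 0.761% of all genes passed. The second TOP2A probe set gave -0.76, on the same side. BUB1B, a spindle checkpoint protein, had 4.36, 3.93, 4.54 and 4.76 under AGA, 4.37, 4.20, 4.31 and 5.39 under Aza and 4.81, 5.15, 4.75 and 5.27 in vehicle. It was lower in all 4 pairs, with a difference of -0.60 and a standard error of 0.20, and its highest AGA value lay just above the lowest vehicle value (limma adjusted p = 0.47). KIF11, the kinesin that pushes the spindle poles apart, had 5.44, 6.0, 5.66 and 5.36 under AGA, 6.36, 6.02, 6.53 and 5.45 under Aza and 6.29, 6.08, 6.25 and 5.78 in vehicle. It was again lower in all 4 pairs, though AGA 2 lay inside the vehicle range, and its difference was -0.49 with a standard error of 0.19 (limma adjusted p = 0.499).

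On the higher side were TPX2, PTTG1 and DLGAP5. TPX2, an activator of Aurora A on the spindle, had 5.81, 5.79, 5.58 and 5.77 under AGA, 5.24, 5.65, 5.67 and 5.59 under Aza and 5.22, 5.46, 5.65 and 5.59 in vehicle, a difference of 0.26 with a standard error of 0.13. Without normalization between arrays, where the median of all genes was itself at -0.24, its difference was -0.024. PTTG1, securin, which holds separase until anaphase, had 8.54, 8.66, 8.28 and 8.40 under AGA, 7.98, 8.52, 8.22 and 7.78 under Aza and 8.25, 8.68, 8.16 and 7.76 in vehicle, a difference of 0.26 with a standard error of 0.14. In both genes 3 of 4 pairs were higher and the groups overlapped. DLGAP5, a spindle assembly protein, had 3.08, 2.23, 0 and 2.67 under AGA, 1.72, 2.39, 1.62 and 0.78 under Aza and 2.86, 1.37, 0.86 and 0 in vehicle. It was dim, and the interval of its difference, 0.72, ran from -0.75 to 2.20.

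Of the mitotic cyclins and their kinase, CCNA2 gave -0.28, CCNB1 -0.14, CCNB2 -0.11 and CDK1 -0.08, the last with an interval from -0.65 to 0.49. Of the mitotic kinases, AURKA gave 0.02, and the dim AURKB, PLK1, NEK2, BUB1 and TTK gave 0.38, 0.26, -1.06, 0.61 and -0.80, each with an interval on both sides of 0. The checkpoint gene MAD2L1 gave -0.24 and the centromere genes CENPA, CENPE and CENPF -0.26, -0.45 and -0.38. The kinesins KIF20A, KIF23 and KIF2C gave -0.46, -0.65 and 0.17, and the spindle proteins NUSAP1 and PRC1 0.10 and -0.05. CDC20 and UBE2C, which act with the anaphase-promoting complex, gave -0.34 and 0.16. MKI67, the gene of the Ki-67 proliferation antigen, gave 0.39 with an interval from -0.99 to 1.77, and its other 3 probe sets gave 0.24, -1.04 and 0.48. BIRC5, survivin, gave -1.34 with a standard error of 0.53 and was lower in all 4 pairs, while its other probe sets gave 0.24 and -0.46.

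At an unadjusted p below 0.05, 7 of the 52 genes stood out between AGA and vehicle, 6 lower (TOP2A, BUB1B, KIF11, BIRC5, E2F1 and CCNE2) and 1 higher (FEN1). Over all genes 4.53% did so on the lower side and 5.37% on the higher, 9.9% in all. Without the replicate block 2 of the 52 did. Of the 7 found with the block, only KIF11, lower, and FEN1, higher, were bright, and the others were dim. All 4 pairs were lower in 9 genes, against 9.14% of all genes, and higher in 1, PCNA, against 10.4%. In 0 genes were the AGA and vehicle ranges apart, which was so for 1.27% of all genes on the lower side and 1.42% on the higher. The 95% interval lay within 1 log2 unit of 0 in 29 of the 52 genes, among them all 26 bright ones, and within 0.5 in 12. A change in the bright genes larger than 2-fold in either direction therefore lay outside their intervals, whereas 23 of the dim genes had intervals that reached further.

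**Figure D2:**
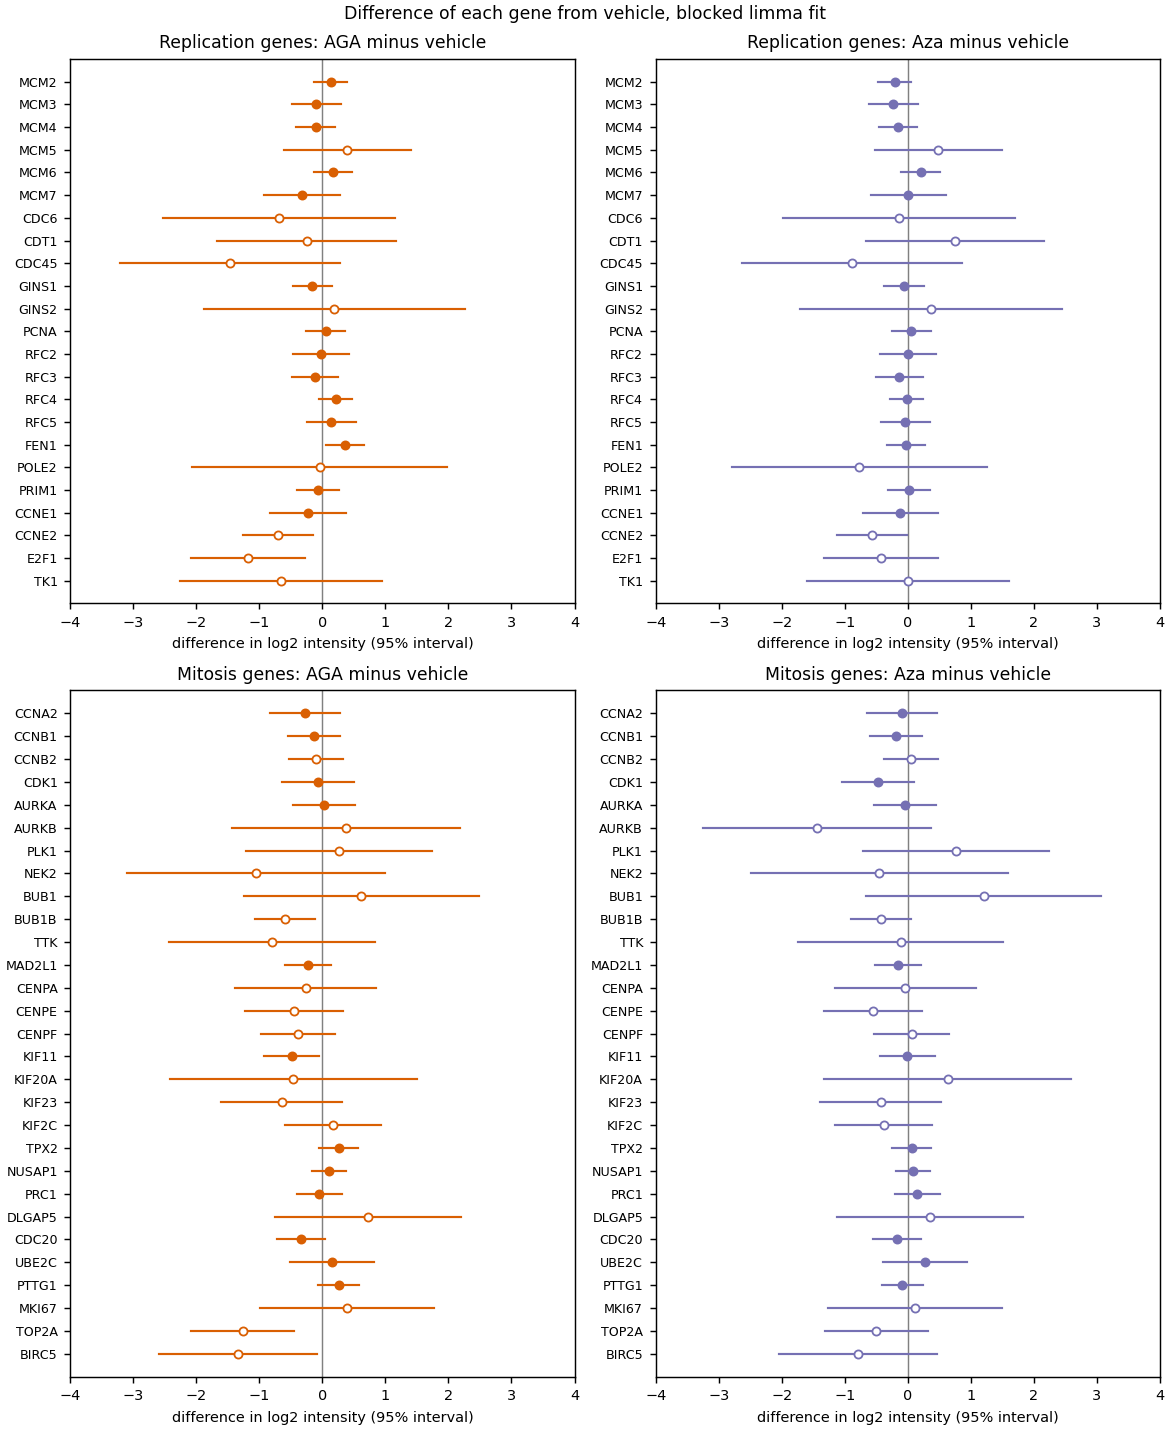
Difference of each gene from vehicle. The horizontal axes give the difference in log2 intensity, AGA minus vehicle at left and Aza minus vehicle at right, with replication genes above and mitosis genes below; points are limma estimates and bars 95% intervals, filled for the 26 genes above the median level and open for the 26 below it. Under AGA the intervals of all 26 filled points lie within 1 of 0, those of KIF11 and FEN1 without reaching 0, and 23 of the 26 open points have intervals that reach further than 1.

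The comparison of Aza with vehicle asked the same of cultures given this inhibitor of DNA methyltransferases. Again none of the 52 genes passed the test, and of all probe sets and all genes 0% did. The median difference, Aza minus vehicle, was -0.04 over the replication genes, -0.09 over the mitosis genes and 0.0016 over all genes, with 15 of 23 and 18 of 29 genes below 0 against 49.7% of all. Both comparisons use the same 4 vehicle arrays, so their values stand side by side only. At an unadjusted p below 0.05 there was 1 gene, CCNE2, against 5.22% of all genes.

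CCNE2, whose arrays are given above, was lower under Aza in 3 of 4 pairs, with a difference of -0.57 and a standard error of 0.24 (limma adjusted p = 0.912). Its second, dimmer probe set gave 1.53, the opposite sign. MCM2, a helicase subunit, had 5.21, 5.61, 5.32 and 5.25 under Aza, 5.56, 5.66, 5.77 and 5.76 under AGA and 5.52, 5.71, 5.43 and 5.58 in vehicle. The Aza array was the lower of the pair for every number, with a difference of -0.21 and a standard error of 0.11. MCM3, whose promoter is printed above, had 5.86, 5.30, 6.06 and 6.74 under Aza, 5.73, 5.83, 6.28 and 6.63 under AGA and 6.14, 6.01, 5.99 and 6.74 in vehicle, a difference of -0.23 with a standard error of 0.17. Its replicate 4 arrays were the highest of each group. On the higher side, MCM6 was above vehicle in all 4 pairs with ranges that did not overlap, with a difference of 0.21 and a standard error of 0.13 (limma adjusted p = 0.928). It was the only 1 of the 52 with its Aza range above its vehicle range, against 0.869% of all genes. CDT1, the licensing factor, had 2.11, 2.97, 3.16 and 2.21 under Aza, 0.76, 3.05, 2.14 and 0.52 under AGA and 1.75, 0.68, 2.56 and 2.48 in vehicle, a difference of 0.75 with an interval from -0.67 to 2.17. MCM5, the remaining gene of this rank, had 4.83, 4.06, 4.76 and 5.66 under Aza, 4.88, 3.68, 5.34 and 5.05 under AGA and 4.67, 4.76, 4.17 and 3.78 in vehicle, a difference of 0.48 with a standard error of 0.43. In both CDT1 and MCM5, 3 of 4 pairs were higher under Aza.

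Of the other replication genes, the bright MCM4, MCM7, GINS1, PCNA, RFC2, RFC3, RFC4, RFC5, FEN1, PRIM1 and CCNE1 lay between -0.15 (MCM4) and 0.06 (PCNA) under Aza. E2F1 gave -0.42 and its other probe set -0.013. The dim CDC6, CDC45, GINS2, POLE2 and TK1 gave -0.14, -0.89, 0.37, -0.77 and 0.01, with intervals on both sides of 0.

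In mitosis genes, the lowest p-values on the lower side under Aza were those of BUB1B, CDK1 and AURKB. BUB1B differed by -0.43 with a standard error of 0.20, 3 of 4 pairs being lower and Aza 4 lying above every vehicle array. CDK1, the kinase that drives entry into mitosis, had 4.60, 5.18, 5.83 and 5.08 under Aza, 5.45, 5.43, 5.61 and 5.79 under AGA and 5.46, 5.52, 6.48 and 5.11 in vehicle. All 4 pairs were lower, with a difference of -0.47 and a standard error of 0.24, and vehicle 3 was the highest array (limma adjusted p = 0.913). The other CDK1 probe sets gave -0.13 and -0.18. AURKB, the kinase that corrects chromosome attachment, had 1.16, 0.02, 1.83 and 3.60 under Aza, 3.56, 2.71, 3.68 and 3.94 under AGA and 2.99, 4.25, 3.05 and 2.10 in vehicle. It was lower in 3 of 4 pairs and higher in pair 4, and the interval of its difference, -1.45, ran from -3.26 to 0.37. 

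BUB1, PLK1 and PRC1 stood on the higher side under Aza. BUB1, a checkpoint kinase at kinetochores, had 3.46, 2.77, 3.16 and 3.49 under Aza, 3.67, 0.95, 2.94 and 2.94 under AGA and 0, 2.73, 1.74 and 3.58 in vehicle, where replicate 1 was at the floor. Its difference was 1.21 with a standard error of 0.80, and its other 4 probe sets gave between -1.02 and 1.18. PLK1, the Polo kinase, had 2.41, 3.33, 4.48 and 4.32 under Aza, 3.27, 3.73, 1.34 and 4.19 under AGA and 2.85, 2.36, 2.93 and 3.35 in vehicle, a difference of 0.76 with a standard error of 0.63. PRC1, which bundles microtubules of the central spindle, had 4.96, 5.31, 5.18 and 5.12 under Aza, 5.25, 4.72, 4.87 and 4.94 under AGA and 5.25, 4.80, 4.93 and 5.0 in vehicle, a difference of 0.15 with a standard error of 0.15. For each of the 3, pairs were higher under Aza for 3 of 4 numbers.

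The bright CCNA2, CCNB1, AURKA, MAD2L1, KIF11, TPX2, NUSAP1, CDC20, UBE2C and PTTG1 lay between -0.19 (CCNB1) and 0.27 (UBE2C) under Aza. TOP2A gave -0.50, MKI67 0.11 and BIRC5 -0.79, each with an interval on both sides of 0. The cyclin CCNB2 and the centromere genes CENPA, CENPE and CENPF gave 0.05, -0.04, -0.55 and 0.06. KIF20A, KIF23, KIF2C, NEK2, TTK and DLGAP5 gave 0.63, -0.43, -0.38, -0.45, -0.12 and 0.36. All 4 pairs were lower in 6 of the 52 genes (CDK1, CENPE, KIF2C, BIRC5, MCM2 and CDC6), against 7.29% of all genes, and higher in 2 (TPX2 and MCM6), against 8.24%. The interval lay within 1 log2 unit of 0 in 28 genes, among them 25 of the 26 bright ones, the exception being CDK1, and within 0.5 in 14.

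**Figure D3:**
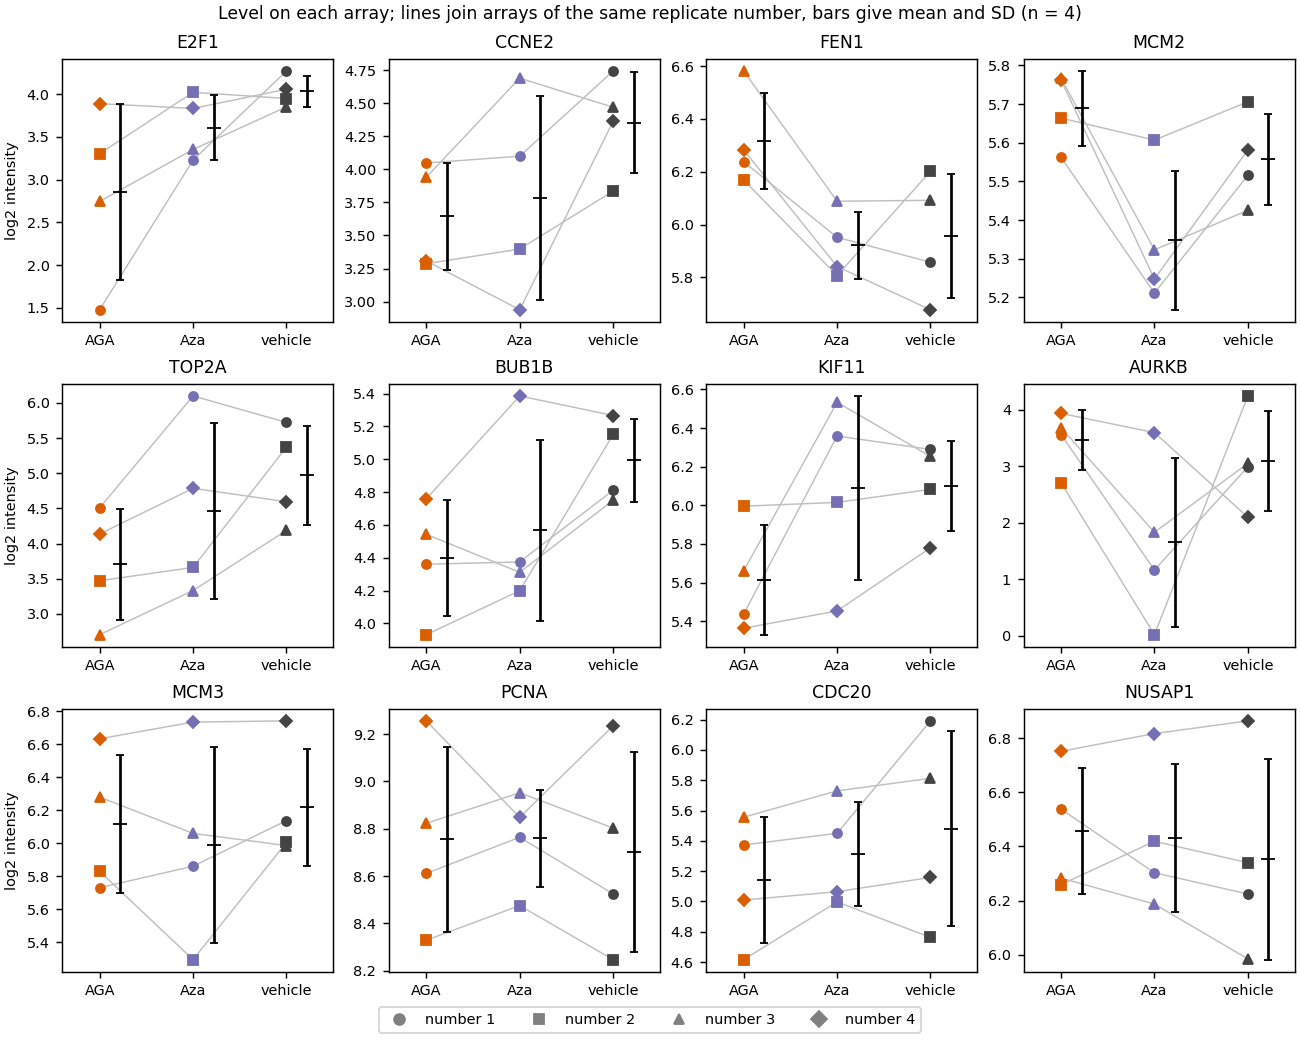
Log2 intensity of 12 of the genes on each array. In each panel AGA, Aza and vehicle stand left to right, symbols give the replicate number, grey lines join arrays of the same number, and bars give the mean and SD (n = 4). The upper row shows replication genes, the middle row mitosis genes, and the lower row MCM3, PCNA, CDC20 and NUSAP1. Number 4 tops each group for MCM3 and NUSAP1, and number 2 is lowest in each group for PCNA and CDC20.

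In the comparison of the drugs with each other, none of the 52 genes passed between Aza and AGA, while 0.009% of all probe sets passed. The median difference, Aza minus AGA, was 0.09 over the replication genes and 0.17 over the mitosis genes, and with dim probe sets left out it was -0.0071 and 0.023. At an unadjusted p below 0.05 there were 5 genes, against 9.24% of all. FEN1 had a difference of -0.40 with ranges that did not overlap, as in 1.32% of all genes on that side (limma adjusted p = 0.46). The differences of MCM2, PTTG1 and AURKB were -0.34, -0.35 and -1.82, and that of KIF11 was 0.48. Averaged over AGA and Aza and set against vehicle, not polarized against polarized, again 0 of the 52 and 0% of all genes passed. The unadjusted p was below 0.05 in 4 genes, all lower, against 2.98% of all genes on that side. These were BUB1B, TOP2A, CCNE2 and E2F1, all of them dim. The median differences were -0.11 for replication and -0.16 for mitosis.

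The probe sets of 1 gene often disagreed. Of the 33 further probe sets, 13 had the sign of the brightest one in the AGA comparison and 20 in the Aza comparison. The median gap to the brightest was 0.505 under AGA and 0.454 under Aza. Of these 33, 8 lay above the median level, and 4 of the 8 shared the sign in each comparison. The lowest limma adjusted p among them was 0.426 under AGA and 0.912 under Aza.

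Arrays of the same replicate number resembled each other across the 3 groups, and the same fit tested for differences between numbers, leaving out those between groups. Of all probe sets 9.63% passed that test, of all genes 11%, and of genes above the median level 17.2%. Among the 52 genes 1 passed, CDC20. It had 5.37, 4.62, 5.56 and 5.01 under AGA, 5.45, 5.0, 5.73 and 5.06 under Aza and 6.19, 4.76, 5.81 and 5.16 in vehicle. Numbers 1 and 3 were the high ones and numbers 2 and 4 the low ones in every group, with means of 5.67, 4.79, 5.70 and 5.08 over the 3 arrays of numbers 1 to 4 (F = 11.4, limma adjusted p = 0.0454). This call was lost when any array other than vehicle 1 was left out.

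The next largest F values belonged to MCM3, NUSAP1, TOP2A and PCNA. MCM3 had means of 5.91, 5.71, 6.11 and 6.70 over numbers 1 to 4, number 4 being the highest in each group (limma adjusted p = 0.0544). NUSAP1, which binds spindle microtubules, had 6.54, 6.26, 6.28 and 6.75 under AGA, 6.30, 6.42, 6.19 and 6.82 under Aza and 6.22, 6.34, 5.98 and 6.86 in vehicle, also with number 4 the highest in each group (limma adjusted p = 0.0635). PCNA had 8.61, 8.33, 8.82 and 9.26 under AGA, 8.76, 8.48, 8.95 and 8.85 under Aza and 8.52, 8.25, 8.80 and 9.23 in vehicle. Number 2 was its lowest array in each group, and number 4 its highest under AGA and in vehicle (limma adjusted p = 0.0653). TOP2A had an F of 8.87. The 4 largest F values of each gene group also included those of CCNA2 among the mitosis genes (6.16) and of CCNE2 and PRIM1 among the replication genes (5.83 and 5.34). CCNA2, the cyclin that acts in S phase and G2, had 4.49, 4.92, 4.47 and 5.26 under AGA, 4.44, 4.72, 5.21 and 5.51 under Aza and 4.11, 5.58, 4.87 and 5.68 in vehicle. PRIM1 had 6.80, 6.10, 6.36 and 6.79 under AGA, 6.63, 6.32, 6.51 and 6.94 under Aza and 6.32, 6.33, 6.67 and 6.99 in vehicle, and in both genes number 4 was at or near the top of each group.

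With an intensity trend in the variance 7 of the 52 passed between numbers (NUSAP1, CDC20, PTTG1, TOP2A, MCM3, PCNA and PRIM1), against 27% of all genes. With dim probe sets left out 9 did, against 46.7% of the genes kept. Without the arrays numbered 4, none of the 52 and 0% of all genes passed. Number 4 was the highest of the 4 means in 12 of 23 replication genes and 11 of 29 mitosis genes, against 33.2% of all genes. On the arrays numbered 4, the replication genes had a median deviation from their own means of 0.217 under AGA, 0.183 under Aza and 0.231 in vehicle, and the other 9 arrays lay between -0.157 and 0.109. For the mitosis genes number 4 gave 0.105 under AGA, 0.0968 under Aza and 0.214 in vehicle, and the other 9 arrays lay between -0.115 and 0.135. Among the 14 bright replication genes number 4 gave 0.179, 0.0786 and 0.187 for AGA, Aza and vehicle. The other 9 arrays lay between -0.183 (vehicle 1) and 0.105 (AGA 3), so Aza 4 was not above all of them. The 12 bright mitosis genes did not share one direction on number 4. They had 0.115 under AGA, -0.248 under Aza and -0.012 in vehicle, the Aza value being the lowest of all 12 arrays. What the numbers stand for is not in the labels, and its part in these values was not tested.

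**Figure D4:**
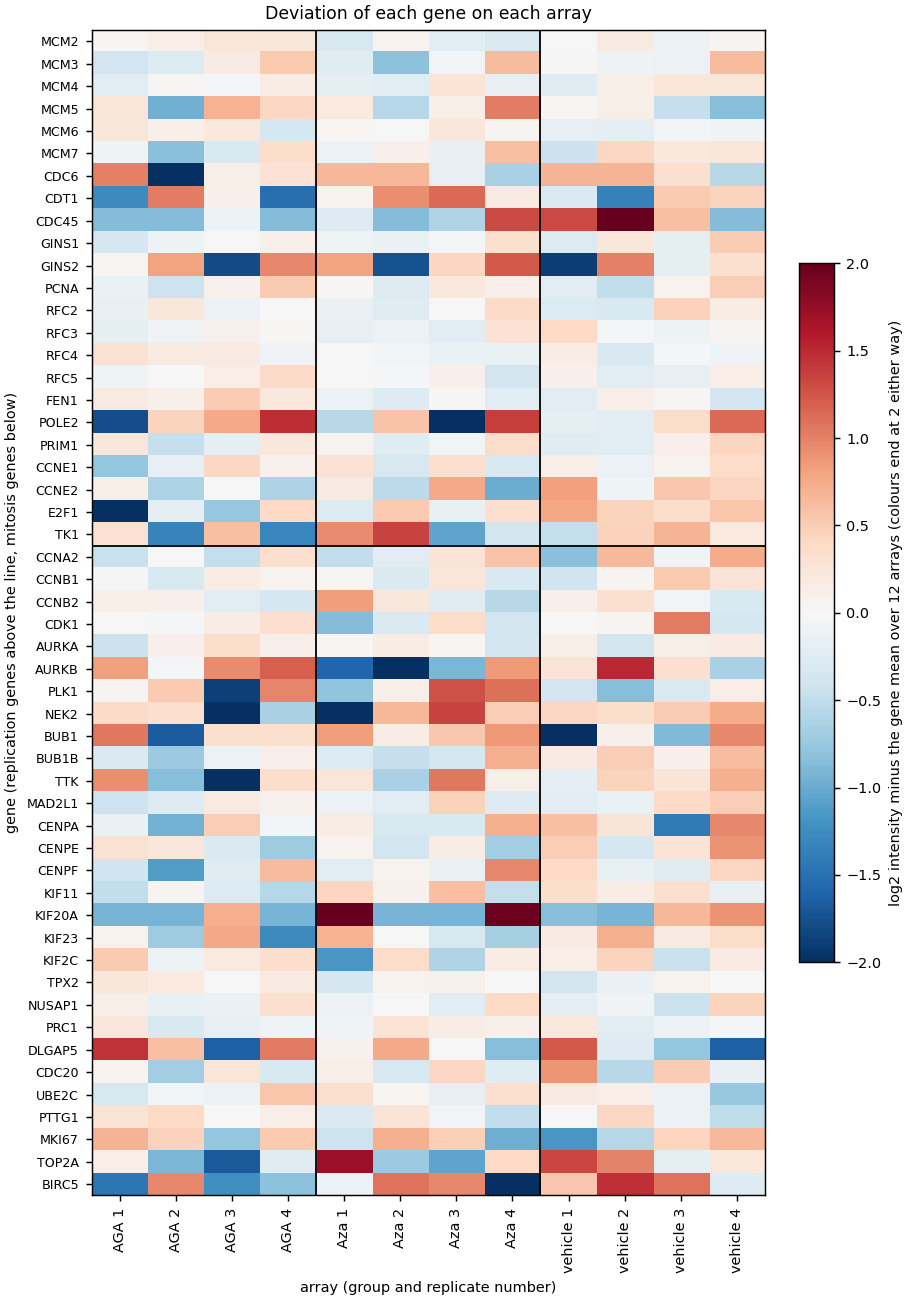
Deviation of each gene on each array from its mean over 12 arrays, in log2 units, red above and blue below. Columns are arrays, AGA, Aza and vehicle from left to right with replicates 1 to 4 in each, and rows are genes, replication above the line and mitosis below. Dim genes such as CDC45, GINS2, POLE2, AURKB and KIF20A carry the strong colours, and MCM3 and NUSAP1 are red in the fourth column of each group.

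Around the 52, lists of 118 further cell cycle genes were read, of which 112 were measured, and none of these passed in a group comparison with the test used above. Of 36 further replication genes, the 2 lowest p-values under AGA were those of CDC7, the kinase that fires origins (-0.38, SE 0.15), and GINS4 (1.27, SE 0.48). Under Aza they were ORC1, the largest origin recognition subunit (-0.42, SE 0.28), and POLA2, of the primase complex (-0.85, SE 0.58). Of 49 further mitosis genes they were CENPN (0.87, SE 0.25) and RACGAP1, needed for cytokinesis (-0.80, SE 0.25), under AGA, and the dim CENPM (1.63, SE 0.65) and SPC25 (1.27, SE 0.52) under Aza. RACGAP1 had 8.33, 8.53, 7.83 and 8.13 under AGA, 9.40, 8.55, 9.53 and 9.41 under Aza and 9.01, 8.69, 9.07 and 9.23 in vehicle, so that all AGA arrays were below all vehicle arrays, as in 1.27% of all genes. Its Aza minus AGA difference was 1.02 with a standard error of 0.25, which passed with an intensity trend in the variance (limma adjusted p = 0.0369) and not without it (0.343).

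Of 15 genes of G1 phase, CDK2, the partner of the E-type cyclins, had 6.03, 5.53, 5.88 and 5.78 under AGA, 6.15, 6.12, 6.23 and 5.85 under Aza and 6.50, 6.26, 6.27 and 6.40 in vehicle. All AGA arrays and all Aza arrays were below all vehicle arrays, which is so for 1.27% of all genes under AGA and 0.802% under Aza. The difference was -0.55 under AGA with a standard error of 0.12 (limma adjusted p = 0.417) and -0.27 under Aza (limma adjusted p = 0.912), and both are set against the same vehicle arrays. In 1 of the 15 genes the AGA range lay wholly above the vehicle range, against 1.42% of all genes. The median difference of the 15 was 0.05 under AGA and 0.03 under Aza, against 0.01 and 0.0016 over all genes. SKP2, which marks the inhibitor p27 for destruction, gave 0.24 under AGA and -0.28 under Aza, and cyclin D1, CCND1, 0.44 under Aza. Of 12 inhibitor genes, CDKN1C, the inhibitor p57, had 9.75, 9.49, 9.75 and 10.31 under AGA, 10.37, 10.32, 10.68 and 10.96 under Aza and 9.91, 9.79, 10.19 and 10.89 in vehicle. It differed by -0.37 under AGA and 0.39 under Aza, with a standard error of 0.12 in each (limma adjusted p = 0.449 and 0.912). With an intensity trend in the variance its AGA difference had an adjusted p of 0.0457. Its Aza minus AGA difference was 0.76, with an adjusted p of 0.000426 with that trend and 0.232 without it. With the trend 0.995% of all genes passed between Aza and AGA, and CDKN1C and RACGAP1 were the 2 of the 112 that did. RBL2, a pocket protein of resting cells, gave -0.37 under AGA, and CDKN1B, p27 itself, -0.36 under Aza.

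Between replicate numbers 33.3% of the inhibitors, 13.3% of the G1 genes, 8.16% of the further mitosis genes and 8.33% of the further replication genes passed, against 11% of all genes. Of the 12 inhibitors these were 4, CDKN1B, CDKN1C, RBL2 and GAS1, all highest on number 4, the means of GAS1 being 8.27, 8.84, 8.68 and 10.27 for numbers 1 to 4. Of the 15 G1 genes 2 passed, MYC with 10.98, 9.42, 9.70 and 8.14 (F = 71.1) and CDC25A, a phosphatase that activates CDK2, with 4.17, 3.08, 4.08 and 1.29, both lowest on number 4. Of the further mitosis genes 4 passed: WEE1, the kinase that restrains CDK1, CKS2 and HMMR were lowest on number 4, and ECT2 was highest. The further replication genes LIG1, TIMELESS and ORC3 passed and were highest on number 4. Inhibitor genes had a median deviation of 0.34 under AGA, 0.324 under Aza and 0.701 in vehicle on arrays numbered 4, and the other 9 arrays lay between -0.275 and 0.148.

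**Figure D5:**
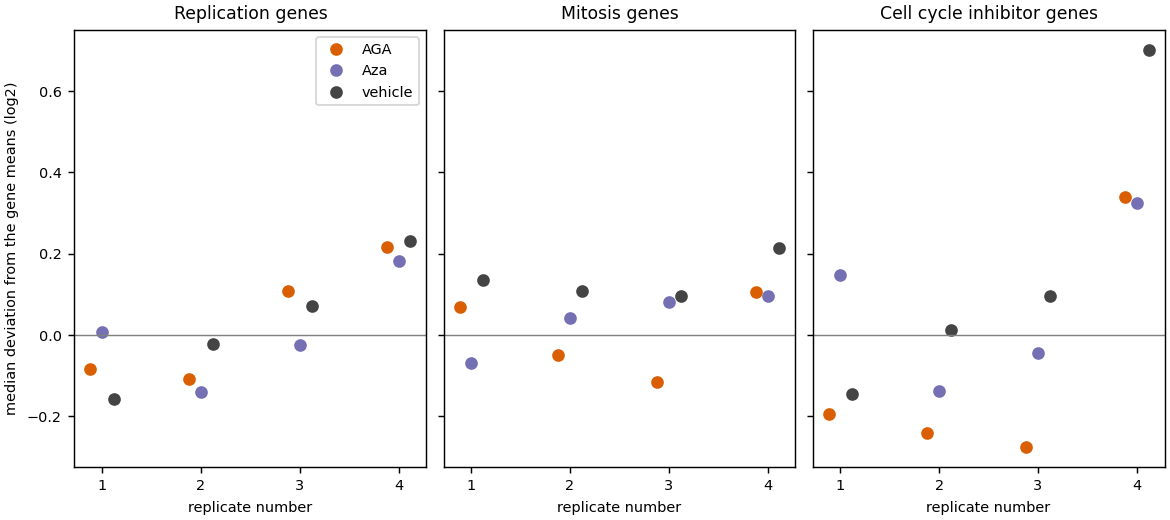
Median deviation of 3 gene lists on each array by replicate number. The vertical axis gives the median over the list of log2 intensity minus each gene's mean over 12 arrays, points are arrays of AGA, Aza and vehicle, and panels show 23 replication genes, 29 mitosis genes and 12 inhibitor genes. Replication genes reach 0.183 to 0.231 and inhibitor genes 0.324 to 0.701 on number 4, while the mitosis genes stay between -0.115 and 0.214 on all arrays.

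The label of the cells was checked against markers. Of 10 epithelial genes 9 were measured and 7 lay above the median level, while KRT19 was at the floor on all 12 arrays. The summed epithelial intensity ran from 13412 to 16009 under AGA, 9090 to 14382 under Aza and 9417 to 14715 in vehicle. Of markers of other cell types, 2 of 6 fibroblast genes, 0 of 4 leukocyte genes and 2 of 7 endothelial and adipocyte genes lay above the median level. Their sums ran from 132 to 217 under AGA, 219 to 286 under Aza and 182 to 260 in vehicle for fibroblast genes, and no higher than 38.1 in any group for leukocyte genes. Endothelial and adipocyte sums ran from 177 to 303 under AGA, 260 to 398 under Aza and 232 to 360 in vehicle. The part of these markers in the differences was not tested.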

How the data were processed

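The authors deposited 1 intensity per probe set and array on a linear scale, from 0.0206 to 11878, made with GCOS, per the submitters' processing notes; its version and algorithm, and the genome build, are not given in the sources used here. From each sample 2.25 µg of RNA was labelled, per the labels' protocols. Without the 62 controls, 22215 of 22277 probe sets were used; values below 1 were set to 1, log2 was taken and the arrays were quantile normalized, since their log2 medians differed by 0.62. Of the probe sets used, 19064 carried 1 gene symbol, 1043 several and 2108 none. Detection calls were not used.

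A linear model of group and replicate number over the 12 arrays was run for every probe set with limma 3.58.1 (lmFit, then eBayes; R 4.3.3) with two-sided tests, and p-values were adjusted by Benjamini-Hochberg at 0.05. Standard errors and 95% intervals come from this fit. An F-test over the number terms compared the replicate numbers. The number was a block because the rule for reading these genes, which were chosen by name, pairs the arrays by it. The labels give the numbers and nothing more. Deviations of same-numbered arrays correlated at 0.0589 to 0.261 over all probe sets (6 of 12 pairs over 0.1) and at 0.368 to 0.781 over those above the median level (12 of 12), against at most 0.0292 and 0.181 for different numbers. The fit was tested on simulated data.

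The 52 genes and all lists were chosen with earlier results of these data known. Values on every array are given for genes past the threshold, the 3 lowest p-values per direction and gene group in each drug comparison, and the 4 largest F values per gene group; of other lists, genes past the threshold or the 2 lowest p-values. RACGAP1, CDK2 and CDKN1C were given array by array after their values were seen. Alternatives were no replicate block, no normalization, median centring, a floor of 16, dim probe sets left out, an intensity trend with robust variance, Holm adjustment, each array left out, the arrays numbered 4 left out, and the median over a gene's probe sets.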

Additional observations from a re-analysis of the deposited data

Results flagged for a closer look

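With 4 arrays per group, a value was picked out where its gap to the nearest of the others took up more of the group's range than Dixon's 95% limit allows, which chance does in about 1 in 20 groups. Of 84 groups tested, 3 were picked out. CDC45 on AGA 3 was at 0.769 while the other AGA arrays were at 0, where the floor had set them, so that any value above the floor would have been picked out there. TPX2 on AGA 3 was at 5.58, below the other AGA arrays at 5.77 to 5.81. BUB1B on Aza 4 was at 5.39, above the other Aza arrays at 4.20 to 4.37. No cause was tested for any of them.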

How the results depend on the processing

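None of the 52 genes was called in any group comparison under any alternative. With no replicate block, calls over all probe sets were 2 for AGA, 2 for Aza, 3 for Aza against AGA and 1 for both drugs, against 2, 0, 2 and 0 with the block. For AGA the count was 0 without normalization, with median centring, a floor of 16, dim probe sets left out or Holm adjustment and without the arrays numbered 4, and 156 with the intensity trend, where Aza had 1. For Aza against AGA it was 0 with median centring and without number 4, 4 with the floor, 83 without dim probe sets and 189 with the trend. Leaving out 1 array gave 0 to 1 in each of these comparisons.

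Without normalization the replication and mitosis medians were -0.37 and -0.42 for AGA, 0.28 and 0.37 for Aza against AGA and -0.29 and -0.32 for both drugs, while the median of all genes was itself -0.24, 0.18 and -0.15. There RFC4, MCM6 and TPX2 turned sign under AGA, to -0.053, -0.095 and -0.024. With the floor of 16 the medians were 0 and -0.0503 for AGA, -0.011 for mitosis under Aza, 0.0052 and 0 for Aza against AGA, and 0 for mitosis under both. Without dim probe sets they were -0.041 and -0.063 for AGA, -0.0071 and 0.023 for Aza against AGA and -0.089 for mitosis under both, and without number 4 mitosis under Aza was at -0.0025. Leaving out 1 array gave -0.18 to -0.032 for replication and -0.20 to -0.072 for mitosis under AGA, -0.11 to -0.016 and -0.16 to -0.00011 under Aza, and -0.11 to -0.012 and -0.22 to -0.049 under both. For mitosis in Aza against AGA it gave 0.019 to 0.19.

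Between replicate numbers, 2140 probe sets and 1 of the 52 genes were called. This became 370 and 0 without normalization, 3612 and 5 with the floor, 5101 and 9 without dim probe sets, 5288 and 7 with the trend, 21 and 0 with Holm adjustment, and 0 and 0 without number 4. Leaving out 1 array gave 250 to 1073 probe sets and 0 to 1 genes, fewer for each of the 12 arrays. The causes were not tested. The low signal of 26 of the 52 genes limits what could be seen in them.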
